A study of Homo sapiens with 2 samples.

Results

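The HLA-DRA-positive cells of doxorubicin-resistant SUM159 cells grown attached were 270 of the 7032 cells of that population and of 30122 cells in the whole series. A cell was counted as positive when it held 2 or more molecules (unique molecular identifiers, UMIs) of HLA-DRA, and it was set against the 6550 cells of the same population with 0. The cells were chosen by their HLA-DRA UMIs, a measured value, so HLA-DRA itself is given below only as a description, and it was left out of the totals on which the other genes were scaled. SUM159 is a human triple-negative breast cancer line, which lacks estrogen and progesterone receptors and HER2 amplification and has a mesenchymal-like, basal character. The cells came from a monolayer culture made resistant by repeated short exposures to increasing doxorubicin, each followed by recovery without drug. The other attached populations were cells made resistant to increasing paclitaxel and treatment-naive cells, and spheroids of doxorubicin-resistant, paclitaxel-resistant and treatment-naive cells made up the rest. A targeted breast cancer panel was read on 2 cartridges, 1 for the 3 attached and 1 for the 3 spheroid populations, each population carrying its own sample tag. The line is 1 line, every population is a single culture, and there are no replicates, so none of the differences below could be tested against the spread between cultures.

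MHC class II molecules present peptides from the endosomal pathway to CD4+ T cells. HLA-DRA encodes the alpha chain of HLA-DR and HLA-DRB1 its beta chain, HLA-DQB1 encodes the beta chain of HLA-DQ, and CD74 is the invariant chain that fills the groove and guides the dimers to the endosome. Dendritic cells, macrophages and B cells carry these genes constitutively, whereas most other cells, carcinoma cells included, turn them on mainly after interferon gamma, through the coactivator CIITA. CIITA does not bind DNA itself but docks on factors that sit on the X and Y boxes of class II promoters, and the Y box is a CCAAT element bound by NF-Y.

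The promoters of the class II genes are shown because their transcripts were found together in the cells described here. Of the 5 genes (HLA-DRA, HLA-DRB1, HLA-DQB1, CD74 and CIITA), 3 matched the RefSeq promoter table of GRCh38.p14, which gives 250 bases before and 50 after the transcription start. All 3 lie on the minus strand, HLA-DRB1 at chr6:32589799-32590098, HLA-DQB1 at chr6:32666608-32666907 and CD74 at chr5:150412861-150413160, and are printed 5′ to 3′ with each CCAAT, on either strand, in capitals.
HLA-DRB1: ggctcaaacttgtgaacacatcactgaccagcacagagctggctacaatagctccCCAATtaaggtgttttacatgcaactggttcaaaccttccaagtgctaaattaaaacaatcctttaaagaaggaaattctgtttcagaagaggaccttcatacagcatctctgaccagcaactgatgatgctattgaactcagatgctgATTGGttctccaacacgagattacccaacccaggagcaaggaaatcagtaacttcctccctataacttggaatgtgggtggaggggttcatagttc
HLA-DQB1: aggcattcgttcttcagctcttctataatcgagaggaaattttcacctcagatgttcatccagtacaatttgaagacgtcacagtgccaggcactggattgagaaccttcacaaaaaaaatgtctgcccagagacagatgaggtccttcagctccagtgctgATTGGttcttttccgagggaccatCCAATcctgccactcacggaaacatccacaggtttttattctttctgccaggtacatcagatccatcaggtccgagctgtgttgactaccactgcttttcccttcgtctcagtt
CD74: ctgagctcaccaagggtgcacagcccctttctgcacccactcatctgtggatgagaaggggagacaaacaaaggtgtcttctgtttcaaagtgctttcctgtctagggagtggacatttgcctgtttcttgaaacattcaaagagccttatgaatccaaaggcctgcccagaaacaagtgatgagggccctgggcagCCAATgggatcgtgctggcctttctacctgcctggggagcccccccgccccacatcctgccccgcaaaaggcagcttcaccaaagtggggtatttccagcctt
The HLA-DRB1 and HLA-DQB1 windows each held 2 such matches, and in each of them 1 lay inside the longer stretch CTGATTGG, searched on both strands. The CD74 window held 1 CCAAT and no CTGATTGG. Of all 35116 promoters of this length, 34.6% held CCAAT and 3.97% held CTGATTGG on either strand, the shorter motif lying within the longer. A match is a match of letters only.

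In the 270 positive cells the HLA-DRA count ranged from 2 to 78 UMIs with a median of 5 (quartiles 3 and 10). There were 62 cells with exactly 2 UMIs and 44 with 3, whereas 89 cells held 8 or more and 28 held 20 or more. These 28 cells held 40.6% of the HLA-DRA UMIs of the positive cells, so a small group of strongly positive cells stood above a broad base of weakly positive ones. Outside the threshold, 212 cells held exactly 1 UMI. The positive cells together held 91.7% of the 2543 HLA-DRA UMIs of the population.

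They made up 3.84% of doxorubicin-resistant attached cells (exact 95% interval 3.40 to 4.32%). Paclitaxel-resistant attached cells had 35 of 5896 such cells (0.594%, 0.414 to 0.825%) and treatment-naive attached cells 58 of 5305 (1.09%, 0.831 to 1.41%). In spheroids the numbers were 10 of 3776 doxorubicin-resistant cells (0.265%), 2 of 3751 paclitaxel-resistant cells (0.0533%) and 12 of 4362 treatment-naive cells (0.275%). The strongly positive cells lay almost wholly in the doxorubicin-resistant attached population. Cells with 8 or more HLA-DRA UMIs were 89 in doxorubicin-resistant attached cells, 1 in paclitaxel-resistant attached cells and 0 in treatment-naive attached cells, where a count of 0 allows up to 0.0566%. In doxorubicin-resistant, paclitaxel-resistant and treatment-naive spheroids they were 2, 0 and 1. The highest single cell held 78 UMIs in the doxorubicin-resistant attached population and 9 and 7 in the paclitaxel-resistant and treatment-naive attached ones. The treatment-naive spheroids held 1 cell with 27 UMIs, above every other cell outside the doxorubicin-resistant attached population. Summed over all cells, HLA-DRA stood at 86.3 UMIs per 1000000 UMIs (CPM) in doxorubicin-resistant attached cells, 9.998 CPM in paclitaxel-resistant attached cells and 13.4 CPM in treatment-naive attached cells. In doxorubicin-resistant, paclitaxel-resistant and treatment-naive spheroids it stood at 5.60, 0.828 and 9.29 CPM.

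**Figure D1:**
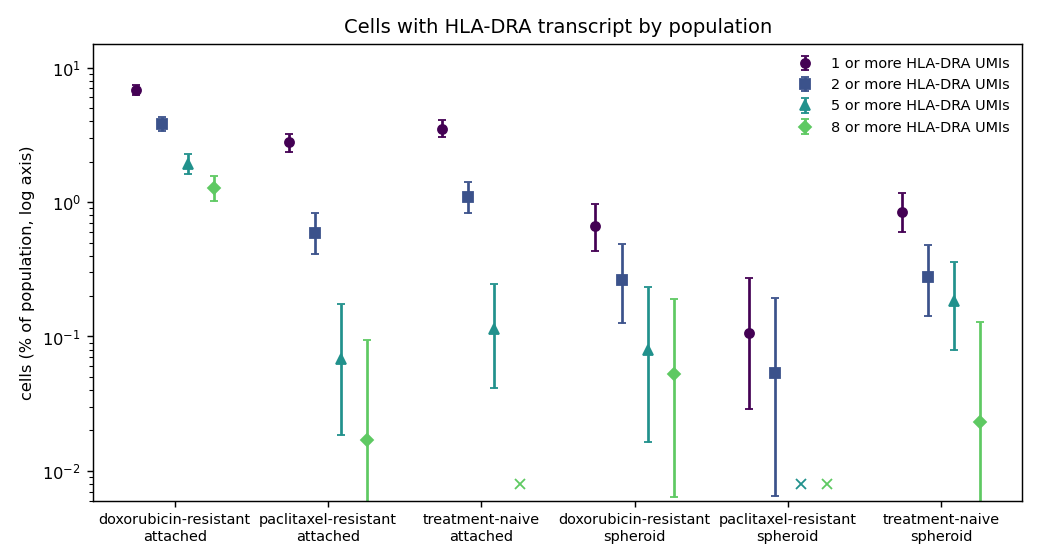
Cells with at least 1, 2, 5 or 8 HLA-DRA UMIs as a percent of each population (log axis, bars are exact 95% binomial intervals, crosses at the bottom mark a count of 0). The doxorubicin-resistant attached population was highest at all 4 thresholds, with 6.85% of cells at 1 or more UMIs and 1.27% at 8 or more.

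Depth bears on these shares. The median UMI count per cell was between 3653 and 3814 in the 3 attached populations and between 1538.5 and 2340 in the 3 spheroid populations. Within the doxorubicin-resistant attached population the positive cells had a median of 4461 UMIs against 3769.5 in the negative cells, and a median of 144 against 141 genes. When the cells were split by depth into 3 nearly equal sets, the positive share was 2.30% in the shallowest, 3.75% in the middle and 5.46% in the deepest set. After each cell was thinned to 2000 UMIs, with 564 of 7032 cells too shallow to keep, 2.61% of the rest were positive. Free RNA in the cartridge could also place a UMI in a cell, and no cell type known to lack HLA-DRA was present to measure it. The share with 1 or more HLA-DRA UMIs was 6.85% in doxorubicin-resistant cells, 2.78% in paclitaxel-resistant cells and 3.52% in treatment-naive cells of that cartridge. The part of free RNA in these shares was not tested. No cell label was shared between populations of 1 cartridge, and 106 labels of doxorubicin-resistant attached cells occurred also in a spheroid population.

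The other measured genes of the MHC class II list, HLA-DRB1, HLA-DQB1, CD74 and CIITA, were the most strongly raised. Of 253 measured genes (at least 50 UMIs in the positive or the negative cells), 15 or 5.93% were at least 2-fold higher in the positive cells and 26 or 10.3% at least 2-fold lower, with 50 or more UMIs in the higher group. The positive cells held 1354642 UMIs and the negative cells 27081363, so 50 UMIs stand for a higher CPM in positive cells. A rare gene could thus be called lower more easily than higher, and the 2 counts are not directly comparable. At a minimum of 10 UMIs, 18 genes were higher and 26 lower. Of the 4 measured class II genes besides HLA-DRA, all 4 were higher, and they held the first 4 places by fold. HLA-DQB1, with 7 UMIs in negative cells, passed the minimum only through the positive cells. Its call as higher was therefore fixed by the rule. HLA-DRB1, CD74 and CIITA passed the minimum in the negative cells as well. The median difference of the 4 genes, HLA-DQB1 included, was 6.98 on the log2 scale against 0.00 over all measured genes. HLA-DQA1, the remaining gene of that list in the files, was too rare to be measured, with 2 UMIs in positive and 3 in negative cells. All intervals given for these levels and folds cover counting error only.

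HLA-DRB1 (chr6:32578775-32589848, GRCh38.p14) stood at 560 CPM in positive and 3.14 CPM in negative cells, from 758 and 85 UMIs. This was a 178-fold difference (95% interval 142 to 226). HLA-DRB and HLA-DQB genes are polymorphic and have close paralogs whose reads the counting could share, so both symbols are uncertain to that extent. HLA-DQB1 (chr6:32659467-32666657) stood at 65.7 CPM in positive and 0.258 CPM in negative cells, a 254-fold difference (118 to 650) that rests on 89 and 7 UMIs. CD74 (chr5:150401639-150412910) stood at 1045 CPM in positive and 11.7 CPM in negative cells, from 1415 and 318 UMIs, an 89.0-fold difference (78.7 to 101). A single cell carried 225 of these UMIs, and without it the CD74 fold was 75.3. CIITA (chr16:10866206-10943021), the coactivator, stood at 60.5 CPM in positive and 4.69 CPM in negative cells, from 82 and 127 UMIs, a 12.9-fold difference (9.66 to 17.2). Summed, the 4 genes were 87.3-fold higher (79.4 to 96.0) in the positive cells.

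**Figure D2:**
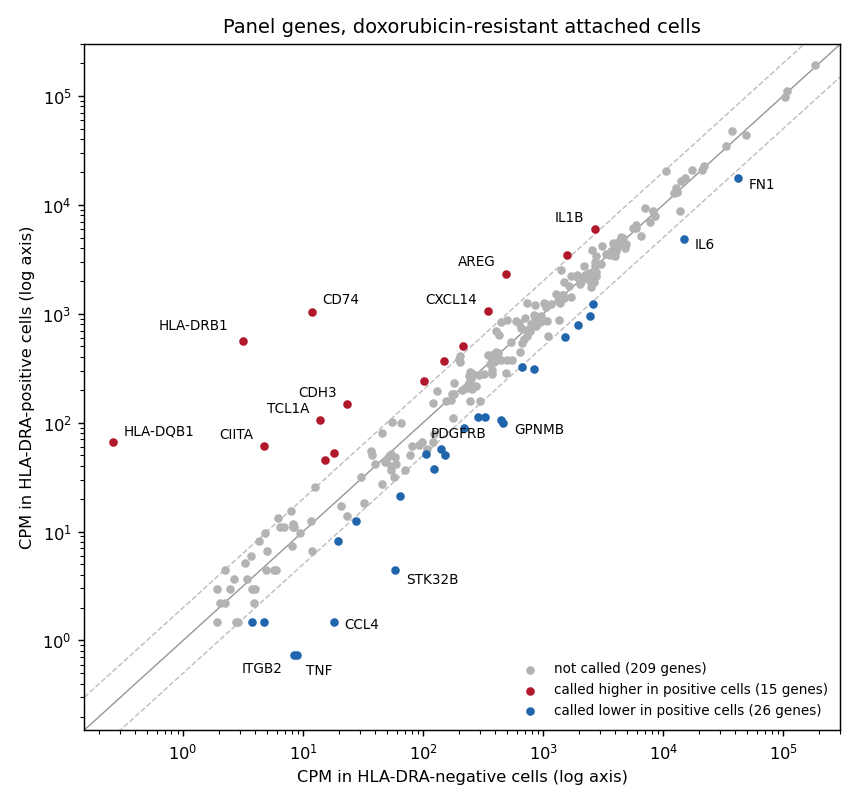
CPM of each measured panel gene in the 270 HLA-DRA-positive cells (vertical) against the 6550 HLA-DRA-negative cells (horizontal), both on log axes, HLA-DRA left out. The solid line marks equal CPM and the dashed lines 2-fold. The class II genes stand farthest above the line, from 12.9-fold for CIITA to 254-fold for HLA-DQB1, and the 3 measured genes with 0 UMIs in positive cells are not drawn.

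The same genes were seen cell by cell. CD74 was detected in 55.9% of positive and 2.79% of negative cells, HLA-DRB1 in 43.7% and 1.05%, HLA-DQB1 in 21.5% and 0.107%, and CIITA in 23.3% and 1.79%. At an equal depth of 2000 UMIs, which 262 positive and 6007 negative cells reached, CD74 was detected in 43.9% of positive and 1.71% of negative cells, and HLA-DRB1 in 33.6% and 0.649%. At least 1 of the 4 genes was found in 195 of the 270 positive cells (72.2%) against 340 of the 6550 negative cells (5.19%). HLA-DRB1 and CD74 were found together in 83 positive cells (30.7%) and 16 negative cells (0.244%). All 4 genes were found in 16 positive cells and in no negative cell, and 75 positive cells had none of them. The negative cells included 62 with 2 or more CD74 UMIs and 10 with 2 or more HLA-DRB1 UMIs, cells that carried class II transcript without a single HLA-DRA UMI.

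The class II genes were graded with HLA-DRA. CD74 stood at 11.7 CPM in cells with 0 HLA-DRA UMIs, 152 with 1, 235 with 2 to 3, 891 with 4 to 7 and 2113 with 8 or more. HLA-DRB1 stood at 3.14, 52.3, 93.3, 266 and 1336 CPM in the same 5 classes. HLA-DQB1 stood at 0.258, 3.95, 9.33, 63.8 and 133 CPM, on 4 to 61 UMIs in the 4 upper classes. These 3 genes were higher in each class than in the class below it. CIITA did not follow the same steps, with 4.69, 24.7, 37.3, 27.7 and 113 CPM. The share of cells with at least 1 of the 4 genes was 5.19%, 39.6%, 51.9%, 69.3% and 98.9%, so that of the 89 cells with 8 or more HLA-DRA UMIs only 1 had none.

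**Figure D3:**
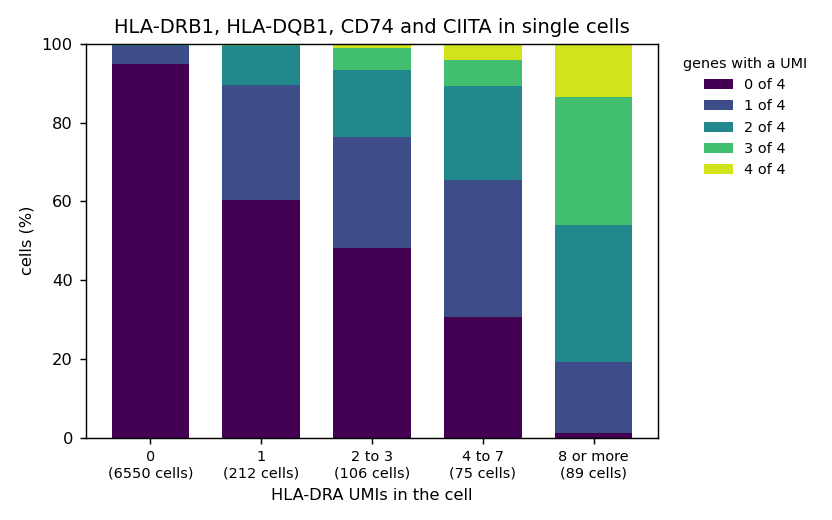
Percent of doxorubicin-resistant attached cells in which 0, 1, 2, 3 or 4 of the genes HLA-DRB1, HLA-DQB1, CD74 and CIITA had a UMI, by the number of HLA-DRA UMIs in the cell. None of the 4 genes was found in 94.8% of cells with 0 HLA-DRA UMIs, 60.4% of those with 1 and 1.12% of those with 8 or more.

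At the edge of the rule, the class II genes had overlapping intervals just inside and just outside it. CD74 stood at 111 CPM (76.3 to 156) in the 62 cells with exactly 2 HLA-DRA UMIs and 152 CPM (129 to 178) in the 212 cells with exactly 1. HLA-DRB1 stood at 87.3 CPM (57.0 to 128) with 2 and 52.3 CPM (39.2 to 68.4) with 1. Both classes were above the 11.7 and 3.14 CPM of cells with 0. Other genes differed between the 2 classes, with IL6 at 5284 CPM (5026 to 5551) with 2 UMIs and 8502 CPM (8323 to 8683) with 1. AREG stood at 2014 CPM and 1623 CPM, and ITGA6 at 3008 CPM (2814 to 3211) and 2245 CPM (2154 to 2339). Cells with 1 UMI belong to neither group of the comparison.

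The positive cells also differed in genes outside the class II pathway, 11 of which were higher. Of these, 4 were on the basal epithelial list, where CDH3, MME and ITGA6 are known from the basal layer of the breast and AREG is also known as an estrogen-induced product of luminal cells. CDH3, which encodes P-cadherin, stood at 148 CPM in positive and 23.4 CPM in negative cells, a 6.31-fold difference (5.35 to 7.40), and was detected in 98 positive cells (36.3%) and 384 negative cells (5.86%). AREG, the epidermal growth factor receptor ligand amphiregulin, stood at 2338 and 490 CPM, a 4.77-fold difference (4.59 to 4.96), and was detected in 77.0% of positive and 29.0% of negative cells. MME, the surface peptidase CD10 of myoepithelial cells, stood at 45.0 and 15.1 CPM, a 2.97-fold difference (2.23 to 3.90) from 61 and 410 UMIs. ITGA6, the laminin-binding integrin alpha 6, was found in 99.6% and 92.9% of cells and stood at 3433 and 1585 CPM, a 2.17-fold difference (2.10 to 2.23). Of 10 measured genes of the basal epithelial list these 4 were higher and none was lower, against 5.93% and 10.3% over all measured genes, with a list median of 0.97 on the log2 scale. TP73, a p53 family factor that the study used as an epithelial marker, did not reach the threshold at 381 CPM in positive and 197 CPM in negative cells (1.93-fold). KRT14 was likewise just under it at 405 and 204 CPM (1.98-fold). The lowest measured members of the list were EGFR (1.07-fold) and FOXC1 (1.03-fold).

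TCL1A, a coactivator of the kinase AKT known from lymphocytes, stood at 106 CPM in positive and 13.9 CPM in negative cells, a 7.58-fold difference (6.21 to 9.22). It was detected in 56 positive cells (20.7%) and 197 negative cells (3.01%). It was the sole gene of 3 measured in the B lineage list to be called. The other measured members were FCRLA at 98.9 and 64.8 CPM and CD79A, a chain of the B cell receptor complex, at 2.21 and 3.91 CPM. Summed, the 9 B lineage genes in the files stood at 211 CPM in positive and 84.6 CPM in negative cells. Their defining members were at or near 0 in the positive cells, with 3 UMIs of CD79A, 0 of CD79B and 0 of IGKC. PTPRC (CD45), which all nucleated blood cells carry, had 5 UMIs in 4 positive cells and 72 UMIs in 62 negative cells, or 3.69 and 2.66 CPM. Of 7 measured T and NK cell genes none was called, with CD3E at 0 and 4 UMIs, and their summed level over 18 genes was 238 CPM in positive and 160 CPM in negative cells. Of 4 measured myeloid genes none was higher and GPNMB and TLR1 were lower, with a summed level over 11 genes of 201 and 623 CPM. LYZ and C1QA, macrophage genes, had 1 UMI each in positive cells and 18 and 36 UMIs in negative cells. The positive cells held 1354642 UMIs in all and the negative cells 27081363. Counts this low therefore cannot show LYZ, C1QA or CD3E as lower in the positive cells. Transcripts typical of the line were present in the positive cells. KRT18, a keratin of simple epithelia, stood at 13133 CPM in positive and 12985 CPM in negative cells, and VIM, the mesenchymal filament vimentin, at 110031 and 107700 CPM, each found in all 270 positive cells.

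Signalling and immune genes moved in both directions. CXCL14, a chemokine made by epithelia, stood at 1059 CPM in positive and 349 CPM in negative cells, a 3.04-fold difference (2.87 to 3.21). A single positive cell held 243 of its 1434 UMIs, and without that cell the fold was 2.54. IL1RN, the interleukin-1 receptor antagonist, was 2.89-fold higher (2.22 to 3.71). IL1B, interleukin-1 beta, stood at 5951 and 2685 CPM, a 2.22-fold difference (2.17 to 2.27). CD274, the checkpoint ligand PD-L1, stood at 508 CPM in positive and 214 CPM in negative cells, a 2.37-fold difference (2.19 to 2.57), and was detected in 67.4% and 37.9% of cells. EDNRA, the endothelin receptor A, was 2.45-fold and IKZF2, the transcription factor Helios, 2.42-fold higher. EDNRA, IKZF2 and IL1B lie outside the rule by which genes were named and complete the list of 15 after the values were seen.

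CD274 was the only one of 4 measured genes of the interferon and MHC class I list to be called. Over cells with 0, 1, 2 to 3, 4 to 7 and 8 or more HLA-DRA UMIs, CD274 stood at 214, 365, 470, 530 and 535 CPM. IFNGR1, a chain of the interferon gamma receptor, stood at 4448 CPM in positive and 3849 CPM in negative cells, or 1.16-fold. The list's median was 0.03 on the log2 scale. Among 10 measured costimulatory ligands CD274 was higher, CD40, TNFSF4 and LGALS9 were lower, and the rest were not called.

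**Figure D4:**
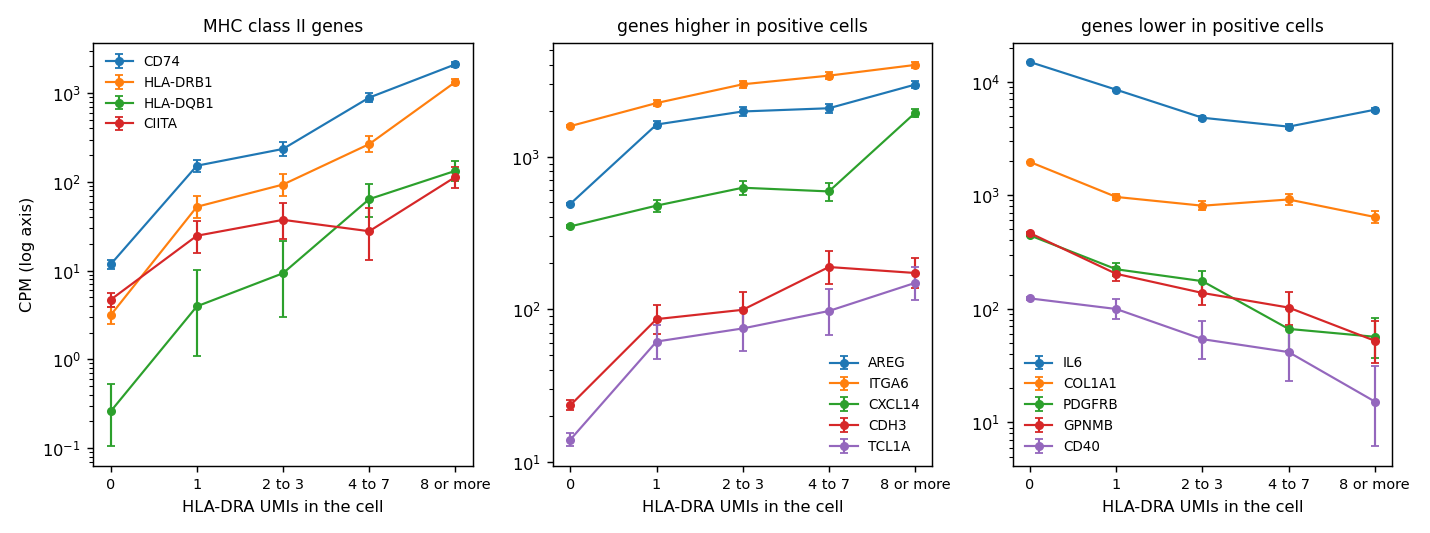
CPM (log axis) of class II genes, of 5 genes higher and of 5 genes lower in positive cells, by HLA-DRA UMIs in the cell, in the 6550, 212, 106, 75 and 89 cells of the 5 classes. Bars are exact 95% Poisson intervals. CD74 stands at 11.7 CPM in the lowest and 2113 CPM in the highest class, AREG at 490 and 2966 CPM, and PDGFRB at 443 and 56.7 CPM.

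Several matrix and mesenchymal genes were lower in positive cells. Of 22 measured genes of that list 7 were lower and none was higher, against 10.3% lower and 5.93% higher over all measured genes, with a list median of -0.34 on the log2 scale. PDGFRB, the platelet-derived growth factor receptor beta, stood at 106 CPM in positive and 443 CPM in negative cells, a 4.17-fold lower level (3.53 to 4.94), and was detected in 27.0% and 61.4% of cells. DCN, the proteoglycan decorin, was 3.00-fold lower (2.08 to 4.49), on 29 and 1739 UMIs, and was found in 17 positive cells (6.30%) and 449 negative cells (6.85%). COL3A1 and COL1A1, fibrillar collagens, were 2.99-fold and 2.51-fold lower, with COL1A1 at 782 CPM in positive and 1962 CPM in negative cells. FN1 (fibronectin), S100A4 and WISP1 completed the 7, at 2.37-fold, 2.56-fold and 2.47-fold lower levels. Without scaling to the total, FN1 was no longer called. The list did not move as a whole, since SNAI2, a transcription factor of epithelial-mesenchymal transition, stood at 3885 CPM in positive and 2545 CPM in negative cells (1.53-fold), and ACTA2, smooth muscle actin, at 831 and 443 CPM (1.88-fold).

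Beyond the matrix genes, IL6, interleukin-6, stood at 4892 CPM in positive and 14893 CPM in negative cells, a 3.04-fold lower level (2.97 to 3.12), although nearly as many cells carried it, 91.5% and 95.3%. GPNMB, a transmembrane glycoprotein, stood at 99.7 and 464 CPM, a 4.65-fold lower level (3.93 to 5.56), and was found in 30 positive cells (11.1%) and 2627 negative cells (40.1%). CD40, a receptor of the tumor necrosis factor family that antigen-presenting cells carry, stood at 37.6 and 124 CPM, a 3.28-fold lower level (2.49 to 4.42). STK32B, a serine/threonine kinase, had the largest fold in this direction, at 4.43 and 58.3 CPM (13.2-fold lower, 6.04 to 35.9), from 6 UMIs in 5 positive cells and 1580 UMIs in 872 negative cells. CCL4, TNF and ITGB2 were 12.1-fold, 12.1-fold and 11.3-fold lower on only 2, 1 and 1 UMIs in positive cells. CCL4, a chemokine, came from 35 of the 6550 negative cells, so that 0.534% of negative and 0.370% of positive cells carried it and its fold rests on a few cells with many UMIs. TNF was found in 107 and ITGB2 in 181 negative cells. EPCAM, the epithelial adhesion molecule, had 2 UMIs in positive and 129 UMIs in negative cells, and its 3.23-fold lower level has an interval that reaches past 1 (0.875 to 26.9), as does that of TNFSF4.

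The other lower genes were at sizes between 2.05-fold and 2.99-fold. Outside those already named they were C4A, CCL5, MAPT, CSF1, PDGFB, KRT81, TLR1, C1S, LGALS9 and CTSD, and this list was completed after the values were seen. CCL5 was detected in 61.5% of positive and 59.2% of negative cells. A single negative cell held 1957 of the 22897 CCL5 UMIs of the negative cells. Of the inflammatory mediators, 18 measured, IL1B, IL1RN and CXCL14 were higher and IL6, TNF, CSF1, CCL4 and CCL5 were lower. Of 16 measured luminal epithelial genes EPCAM alone was called, with ESR1, the estrogen receptor, at 9.60 CPM in positive and 4.84 CPM in negative cells (1.98-fold, 1.03 to 3.51) and MUC1, a mucin, at 159 and 297 CPM (0.537-fold). CASP5, S100A8 and SCUBE2 had 0 UMIs in positive cells and 63, 65 and 70 UMIs in negative cells, or 2.33, 2.40 and 2.58 CPM. A count of 0 allows up to 2.21 CPM, so a 2-fold difference could not be detected at this depth.

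Genes of the cell cycle, of p53 and of drug efflux were not called. None of 14 G1/S genes and none of 17 G2/M genes reached 2-fold, with list medians of -0.01 and 0.13 on the log2 scale, and their extremes in positive over negative cells were CDCA7 (1.39-fold), CCNE1 (0.759-fold), NDC80 (1.28-fold) and CENPF (0.941-fold). Of 9 p53 and apoptosis genes CDKN1A, the p21 inhibitor of cyclin-dependent kinases, was highest at 4184 and 3101 CPM (1.35-fold). ABCB1, the efflux pump P-glycoprotein that exports doxorubicin, stood at 6967 CPM in positive and 7811 CPM in negative cells (0.892-fold) and was found in 89.3% and 88.5% of them. Without scaling to the total it stood at 1.08-fold, and among cells with a CDH3 UMI at 1.27-fold. ABCG2, another efflux pump, stood at 873 and 1363 CPM (0.640-fold).

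Some of the genes raised outside the class II pathway were also graded with HLA-DRA, though less steeply. Over cells with 0, 1, 2 to 3, 4 to 7 and 8 or more HLA-DRA UMIs, TCL1A stood at 13.9, 61.2, 74.6, 97.1 and 148 CPM. AREG stood at 490, 1623, 1977, 2076 and 2966 CPM and ITGA6 at 1585, 2245, 2981, 3397 and 3992 CPM. CDH3 reached its plateau earlier, at 23.4, 85.9, 98.9, 189 and 172 CPM, and CXCL14 was high mainly in the top class, at 349, 477, 625, 591 and 1934 CPM. MME and IL1RN did not rise in steady steps, MME at 15.1, 14.8, 35.4, 69.4 and 37.1 CPM. IL1RN stood at 18.1, 47.4, 28.0, 36.1 and 93.9 CPM. MME, with 61 UMIs in positive cells, was no longer called at HLA-DRA thresholds of 3 and 5. In the other direction PDGFRB stood at 443, 223, 175, 66.6 and 56.7 CPM and GPNMB at 464, 203, 138, 103 and 52.4 CPM. CD40 stood at 124, 99.7, 54.1, 41.6 and 15.3 CPM. IL6 turned at the top, with 14893, 8502, 4816, 4021 and 5666 CPM. The share of cells with an IL6 UMI was 96.0% at 4 to 7 and 88.8% at 8 or more HLA-DRA UMIs. A single positive cell held 752 of the 6627 IL6 UMIs, and whether the turn rests on it was not tested.

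For 10 genes the folds were also taken in cells of like depth. In the shallowest, middle and deepest sets, which held 54, 88 and 128 positive cells, CD74 was 72.8-fold, 105-fold and 97.1-fold higher in positive cells and HLA-DRB1 182-fold, 156-fold and 219-fold. CDH3 was 7.92-fold, 7.80-fold and 5.23-fold higher and AREG 5.89-fold, 5.26-fold and 4.13-fold. CXCL14 was 5.06-fold, 3.93-fold and 2.35-fold higher, and ITGA6, at 3.06-fold, 2.36-fold and 1.97-fold, fell short of 2-fold in the deepest set. IL6 was 4.14-fold, 3.15-fold and 3.04-fold lower in positive cells. GPNMB moved most, at 38.6-fold, 4.80-fold and 3.56-fold lower, followed by PDGFRB at 10.4-fold, 3.79-fold and 3.29-fold. GPNMB and PDGFRB had only 135 and 144 UMIs in all 270 positive cells, of which the shallowest set held 54 cells. No intervals were taken for these folds, and a change of fold with depth was not tested. Over all measured genes 15, 10 and 11 were called higher and 28, 27 and 20 lower in the 3 sets.

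The positive cells were unequal among themselves. The tenth of them richest in a gene (27 cells) held 66.1% of the CD74 UMIs, 66.1% of the HLA-DRB1 UMIs, 74.1% of the TCL1A UMIs and 75.8% of the CXCL14 UMIs, but 23.7% of the ITGA6 UMIs. The 63 positive cells with a CIITA UMI had HLA-DRB1 at 978 CPM, against 431 CPM in the 207 without, and CD74 at 1250 against 981 CPM. HLA-DRA itself stood at 2582 CPM with CIITA and 1455 CPM without, and the median depth was 4729 and 4323 UMIs. CXCL14 stood at 2488 CPM with and 618 CPM without a CIITA UMI, but was detected in 44.4% and 41.5% of these cells. That difference thus lay in UMIs per cell, and a single positive cell held 243 CXCL14 UMIs. GPNMB stood at 18.8 CPM with and 125 CPM without a CIITA UMI, the first on 6 UMIs in 4 cells. The 56 positive cells with a TCL1A UMI had CD74 at 2036 CPM, against 769 CPM in the 214 without, and HLA-DRB1 at 945 against 453 CPM. Deeper cells detect more genes, and the median depth was 4846 and 4337 UMIs in these 2 sets.

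Positive cells were unevenly spread over cells with and without other transcripts. Of the 524 cells with a CDH3 UMI 18.7% were HLA-DRA-positive (15.5 to 22.3%), against 2.64% (2.27 to 3.06%) of the 6508 without, with median depths of 4988 and 3739 UMIs. The share was 9.36% in cells with and 1.29% in cells without AREG, 20.6% and 3.17% for TCL1A, and 31.8% and 3.03% for CIITA. It was 1.11% in cells with and 5.56% in cells without GPNMB, and 1.74% and 6.93% for PDGFRB. For KRT14 it was 4.67% and 3.73%, and for ABCB1 3.88% and 3.56%, with intervals that overlapped in each case.

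Within cells of like CDH3 status the class II genes were again far higher in positive cells. CD74 was 69.4-fold higher (51.4 to 95.9) in the 98 positive over the 384 negative cells with a CDH3 UMI, and 65.2-fold higher (56.3 to 75.5) in the 172 positive over the 6166 negative cells without one. A single cell among the 98 held 225 of their 840 CD74 UMIs, so the first of these folds leans on it. HLA-DRB1 was 54.4-fold (36.0 to 86.1) and 206-fold (157 to 275) higher in cells with and without CDH3, on 24 and 61 UMIs in the negative cells. CIITA was at 5.66-fold and 13.98-fold on 35 and 47 UMIs, too few to be called. TCL1A was 6.51-fold and 5.55-fold higher, CD274 2.26-fold and 2.19-fold. The basal genes were not the same in the strata. AREG was 1.43-fold higher (1.35 to 1.52) among cells with CDH3 and 5.59-fold (5.31 to 5.88) among those without, ITGA6 1.32-fold and 2.24-fold, and TP73 stood at 0.916-fold and 1.98-fold. CXCL14 went the other way, 6.85-fold (6.09 to 7.71) with CDH3 and 2.15-fold (1.98 to 2.33) without. PDGFRB stood at 0.346-fold and 0.286-fold, CD40 at 0.458-fold and 0.256-fold and GPNMB at 0.462-fold and 0.204-fold. Other lower genes were called only among cells without CDH3, such as IL6 at 0.531-fold with and 0.380-fold without it, COL1A1 at 0.555-fold and 0.453-fold, and COL3A1 at 0.635-fold (0.380 to 1.01) and 0.371-fold (0.273 to 0.492). Among cells with CDH3, 5 genes were called higher and 6 lower of 200 measured, against 12 and 30 of 249 among cells without. Of the 26 genes lower in all positive cells, 5 were called among cells with CDH3 and 23 among cells without. Of the 15 higher genes, 5 and 10 were called. Not every lost call was a smaller fold. Among cells with CDH3, HLA-DQB1 (153-fold), MME (2.94-fold) and IL1RN (2.58-fold) were higher on too few UMIs to be called. STK32B was 3.29-fold lower there, also on too few UMIs. AREG, ITGA6, IL6, COL1A1 and COL3A1 had enough UMIs there and fell short on the fold. CDH3 itself defined the strata, so its lost call is not a result. These strata were chosen after the values were seen.

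**Figure D5:**
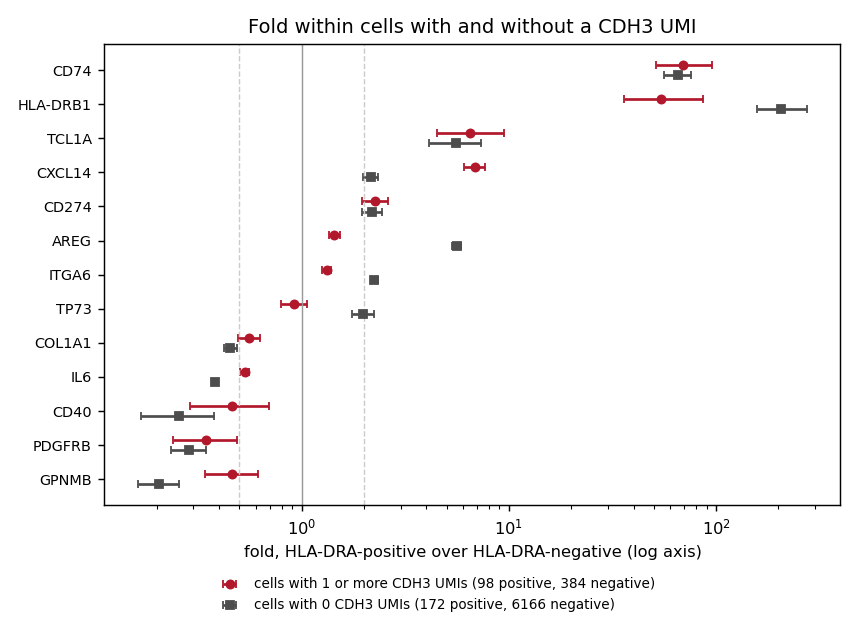
Fold of 13 genes in HLA-DRA-positive over HLA-DRA-negative cells (log axis, bars are exact 95% intervals), separately in cells with and without a CDH3 UMI. CD74 stands at 69.4-fold and 65.2-fold, whereas AREG stands at 1.43-fold with and 5.59-fold without CDH3. Of the 840 CD74 UMIs of positive cells with CDH3, a single cell held 225. Dashed lines mark 2-fold.

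The same comparison could be made in treatment-naive attached cells, where 58 positive cells were set against 5118 with 0 HLA-DRA UMIs. Of 250 measured genes 3 (1.2%) were higher and 12 (4.8%) lower. With only 58 positive cells, the minimum of 50 UMIs again made a higher call harder to reach than a lower one. CD74 stood at 767 CPM in positive and 49.8 CPM in negative treatment-naive cells, a 15.4-fold difference (13.3 to 17.8). The other higher genes were CXCL12, a chemokine, at 2.59-fold and ALDH1A1, an aldehyde dehydrogenase, at 2.39-fold. HLA-DRB1 was 32.5-fold higher (20.2 to 51.1) on 29 and 64 UMIs, below the 50 UMIs asked of the higher group. CD74 was the 1 gene called higher in both populations, 6.67% of the 15 in doxorubicin-resistant and 33.3% of the 3 in treatment-naive cells. COL3A1, DCN, PDGFRB and TNFSF4 were called lower in both, 15.4% of the 26 and 33.3% of the 12. TNFSF4 had 1 UMI in treatment-naive positive cells.

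Several genes that stood out in the doxorubicin-resistant population did not pass 2-fold in the treatment-naive one. Others had too few UMIs there to be called. AREG was 4.77-fold higher in doxorubicin-resistant and 1.36-fold (1.27 to 1.45) in treatment-naive positive cells, CDH3 6.31-fold and 1.72-fold (1.32 to 2.20), and ITGA6 2.17-fold and 1.30-fold (1.21 to 1.40). IL6 was at 0.328-fold in doxorubicin-resistant and 1.14-fold (1.07 to 1.22) in treatment-naive positive cells, and CD40 at 0.305-fold and 1.17-fold (1.01 to 1.34). TCL1A was found in 56 of 270 doxorubicin-resistant and 0 of 58 treatment-naive positive cells, where a count of 0 allows up to 5.17%, and in 4 of the 5118 negative treatment-naive cells. CIITA was found in 63 of the 270 and 1 of the 58, where it stood at 2.76-fold (0.0673 to 16.8) on 1 UMI. CXCL14 had 4 UMIs in the treatment-naive positive cells, at 2.56-fold (0.686 to 6.74). Both intervals hold 1 and also the fold seen in the doxorubicin-resistant cells. Levels over all cells differed too, with TCL1A at 19.8 CPM and CXCL14 at 386 CPM in doxorubicin-resistant and 0.187 and 5.83 CPM in treatment-naive attached cells. Each population is 1 culture, so the differences between these folds were not tested.

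The remaining populations had too few positive cells for folds, and their counts are given. CD74 was found in 20 of 35 positive paclitaxel-resistant attached cells, 7 of 10 positive doxorubicin-resistant spheroid cells, 1 of 2 positive paclitaxel-resistant spheroid cells and 10 of 12 positive treatment-naive spheroid cells. Among cells with 0 HLA-DRA UMIs it was found in 3.09%, 1.44%, 0.480% and 1.64% of these populations. HLA-DRB1 was found in 2 of the 35, 2 of the 10, 0 of the 2 and 3 of the 12. CIITA was found in 0 of the 35, which allows up to 8.57%, and in 2 of the 10, 0 of the 2 and 4 of the 12. TCL1A was found in 4 of the 10 positive doxorubicin-resistant spheroid cells and in none of the other 3 populations. The 10 and 12 positive spheroid cells had median depths of 4233.5 and 7193 UMIs, against 2329 and 1507 UMIs in the negative cells of their populations.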

How the data were processed

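The cells of 6 populations had been read with a targeted panel on 2 cartridges. The authors deposited a matrix of counts (UMIs per panel gene and cell) for each population. Per the study's methods, reads were processed on a cloud genomics platform, where cell labels and UMIs came from quality-filtered first reads and molecule counts adjusted by RSEC were joined with putative cells. The submitters' processing notes name hg38. The attached files hold as many cells as the study collected before quality control. Its later removal of cells with low counts, which left fewer cells, was not repeated, since the sources used here do not give its minimum. Each file was assigned to its population from its name, since the labels list populations and tags only. For spheroids the labels write treated and the design text resistant.

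All deposited barcodes were used, with no doublet caller. The deepest 5% of cells were left out in an alternative. UMIs were summed per gene over the 270 positive and 6550 negative cells, divided by the totals without HLA-DRA (1354642 and 27081363 UMIs) and scaled to 1000000 (CPM). Folds have exact conditional binomial, shares exact Clopper-Pearson and levels exact Poisson 95% intervals, all for counting error only. A gene was called at 2-fold with 50 UMIs in the higher group. No test was run, since the 3 populations of a cartridge shared 1 library, none was repeated, and cells are not replicates. A count of 0 was set to 3 for a bound. Shares at equal depth were taken after thinning to 2000 UMIs, leaving out 8 positive and 543 negative cells. The code was tested on simulated data. Genes were named by rule: the 10 largest folds each way, every measured class II gene, the 2 highest and 2 lowest of each other list, the study's epithelial and mesenchymal markers, ABCB1 and ABCG2. KRT14, KRT18, VIM, PTPRC, the other immune markers and the genes at 0 lie outside this rule and were added after their values were seen. The members, the 14 lists and the rules were chosen with earlier results of these data known. Some genes are not reported here. Files list 373 symbols, 363 of them current in RefSeq. Python 3.11.15, numpy 2.4.6, scipy 1.17.1 and pandas 2.3.3 were used.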

Additional observations from a re-analysis of the deposited data

How the results depend on the processing

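Of 890 values of named genes under alternatives, 671 moved by less than their counting interval, 219 moved by more and no called gene changed direction, while ABCB1, not called, crossed 1 as described. The summed fold of the 4 class II genes, 87.3, was 55.0, 109 and 146 at HLA-DRA thresholds of 1, 3 and 5, 62.9 against all cells below 2 UMIs, 97.7 after thinning to 2000 UMIs, and 106 unscaled. The share of positive cells, 3.84%, was 6.85%, 2.96% and 1.93% at those thresholds and 2.61% after thinning. Thinning called 12 genes higher and 36 lower (25% higher), without CIITA, HLA-DQB1, TCL1A, EDNRA, IL1RN and MME. The cause was not tested. At a threshold of 1, 14 genes were lower in place of 26, with 51.7% of calls higher. It lost the calls of ITGA6 and of C1S, CCL4, CCL5, CD40, CSF1, CTSD, EPCAM, FN1, LGALS9, MAPT, S100A4, TLR1, TNFSF4 and WISP1, and kept 12 of the 26. Mean UMIs per cell without scaling moved the median of all genes by 0.29 on the log2 scale and called 26 genes higher in place of 15 and 20 lower, or 56.5% of calls higher against 36.6%, and lost the calls of FN1, C1S, CTSD, KRT81, LGALS9 and TLR1. In strata chosen after seeing the data, cells with CDH3 gave 11 calls, 5 higher and 6 lower, a summed class II fold of 50.7 and a share of 18.7%, and cells without CDH3 gave 75.1 and 2.64%. Leaving out cells with a CCL4 UMI, also chosen afterwards, removed only the call of CCL4. Minimums of 10 and 200 UMIs gave 44 and 34 calls in place of 41, with 18 and 10 higher and 26 and 24 lower. The minimum stands for a higher CPM in positive than in negative cells, which bears on every share of calls given here. No paired analysis was possible because no population was repeated. At this depth a gene with few UMIs in 270 cells has a wide interval, and of the 26 lower genes 2 had intervals that reached 1 and 19 lay wholly past 2-fold, as did all 15 higher genes.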
